A study of Mus musculus with 1920 samples.

Results

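Expression of 8 genes of the transforming growth factor beta (TGF-beta) pathway was followed in single cells sorted as microglia, the resident macrophages of the brain and spinal cord. They are Tgfb1, which encodes the ligand; Nrros, which encodes the protein that holds latent TGF-beta on the surface of microglia; the receptor genes Tgfbr1 and Tgfbr2; the signal transducers Smad2, Smad3 and Smad4; and Smad7, which encodes the inhibitor of the pathway. They were chosen by gene symbol, with earlier results of these data known. All 8 were found among the 48709 genes of the count table, and all 8 passed the filter on low counts in every comparison.

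The cells came from CD1 mice labelled as 16 weeks old, and 1900 of the 1920 wells are labelled as cells, 1 per well, and 20 as negative. They were amplified by Smart-seq2, which reads along whole transcripts and does not tag single molecules. Untreated mice (treatment label none) gave cells of the cortex, the hippocampus, the cerebellum, the spinal cord, the facial nucleus and the corpus callosum. The facial nucleus was also sampled at days 3 and 14 after facial nerve axotomy, in which the nerve is severed, and the corpus callosum at the demyelination and remyelination stages of treatment with cuprizone, a copper chelator fed to cause loss of myelin. Each of the 10 groups has 4 replicate numbers by label, taken here as 4 mice, although the design text gives 3 to 4 mice. By the same text the 6 untreated regions came from the same mice, so samples of different regions are not independent. Antibodies to CD206, Ly6G, Ly6C, CD45 and CD11b were used in the sort, by a gating scheme not described in the labels themselves. No genetic change is labelled in any group, and the labels carry neither a cuprizone dose nor the days on or off it. For the axotomy cells the tissue label names the facial nerve and the source label the facial nucleus; they are taken here as facial nucleus.

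After filters on depth and quality, 1644 cells were kept, 129 to 181 per group. Their counts were added up per mouse and group, which gave 40 sums of 5298853 to 19964472 counts. Remyelination kept the lowest percentage of wells, 67.9%, and its cells had a median of 1517 detected genes, against 2137 in demyelination and 2328 to 2958.5 in the other groups. All 12 microglia markers were read in every group, with a summed level of 37285 to 65706 CPM (each gene's counts scaled to a common library total) per mouse in the untreated and axotomy groups and of 20370 to 28253 in the cuprizone groups. Demyelination and remyelination shared 1 plate, the axotomy groups another, and the 6 regions 3 further plates in pairs. An injured group and its untreated region thus always lay on different plates, and plate and treatment cannot be told apart between them.

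TGF-beta1 is secreted bound to a latency peptide and must be released before it can act. Active TGF-beta binds the type II receptor, which recruits and phosphorylates the type I receptor; this in turn phosphorylates the Smad2 and Smad3 proteins, which enter the nucleus with Smad4. In microglia the signal is known to maintain the resting, tissue-specific expression programme, and mice that lack it in these cells lose much of that programme.

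The genes lie on mouse build GRCm38 at the positions of the deposited table. Tgfb1 (ENSMUSG00000002603) spans chromosome 7, 25687002 to 25705077, and Nrros (ENSMUSG00000052384) chromosome 16, 32142785 to 32165594. Tgfbr1 (ENSMUSG00000007613) spans chromosome 4, 47353222 to 47414931, and Tgfbr2 (ENSMUSG00000032440) chromosome 9, 116087698 to 116175363. Smad3 (ENSMUSG00000032402) also lies on chromosome 9, at 63646767 to 63757994. The other Smad genes are placed with their values. The deposited positions of Tgfbr2 and Smad2 differ from those of the GENCODE vM21 annotation, and the other 6 are the same in both. No other counted gene overlaps a member.

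The 250 bases before the starts of the receptor genes are shown because the ratio of these 2 genes is described with the results. They are from RefSeq on GRCm38.p6, 5′ to 3′ in the direction of each gene, for Tgfbr1 chr4:47352972-47353221 on the plus strand, and for Tgfbr2 chr9:116175364-116175613 on the minus strand, and capitals mark GC boxes (GGGCGG on either strand).
Tgfbr1: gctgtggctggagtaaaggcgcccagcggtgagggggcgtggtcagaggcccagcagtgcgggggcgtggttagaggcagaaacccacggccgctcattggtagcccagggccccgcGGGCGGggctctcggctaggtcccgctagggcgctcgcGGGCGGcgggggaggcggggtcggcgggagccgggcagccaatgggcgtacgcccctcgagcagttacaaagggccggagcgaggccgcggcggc
Tgfbr2: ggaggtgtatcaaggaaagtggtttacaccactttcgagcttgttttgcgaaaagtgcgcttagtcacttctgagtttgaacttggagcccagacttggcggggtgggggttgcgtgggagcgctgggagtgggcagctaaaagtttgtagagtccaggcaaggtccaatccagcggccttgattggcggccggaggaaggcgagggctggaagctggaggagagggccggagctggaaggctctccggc
The Tgfbr1 window holds 2 GC boxes and 29 CG pairs, and the Tgfbr2 window no GC box and 12 CG pairs. Of all 32851 such windows 32.7% hold a GC box, and the median number of CG pairs is 6. Neither window holds the letters GAGGAAGT, a binding motif of the myeloid factor PU.1 (in 2.4% of windows on either strand), or GTCTAGAC, the palindrome bound by Smad proteins (in 0.2%). The table lists a further Tgfbr1 start inside the gene, which is not shown.

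The members differed widely in level. Levels between genes are compared per length, on a TPM-like scale (counts per kilobase of deposited exon length, scaled to the same total in every sample). Averaged over the 40 sums, Tgfbr1 stood highest at 608, followed by Tgfbr2 at 242 and Nrros at 171. Smad2 averaged 54.3, Smad3 44.1, Smad4 34.1 and Smad7 22.8, and the ligand gene Tgfb1 was lowest at 16.6. Unless stated otherwise, further levels are CPM scaled over the 40 sums by the trimmed mean of M-values (TMM), which compares 1 gene between groups. Where groups are also set side by side per length, those values carry no TMM scaling and no test. How many of all genes separate the groups per length was not computed, so such separations are not shown to be particular to the members. Levels of Fn1 and Ccr2 and summed levels of markers are CPM without TMM scaling. Tests come from edgeR fits scaled within each experiment. Changes are log2 fold changes ± SE with p-values adjusted over all genes tested by edgeR's quasi-likelihood test (Benjamini-Hochberg), and a gene is called at an adjusted p under 0.05.

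**Figure D1:**
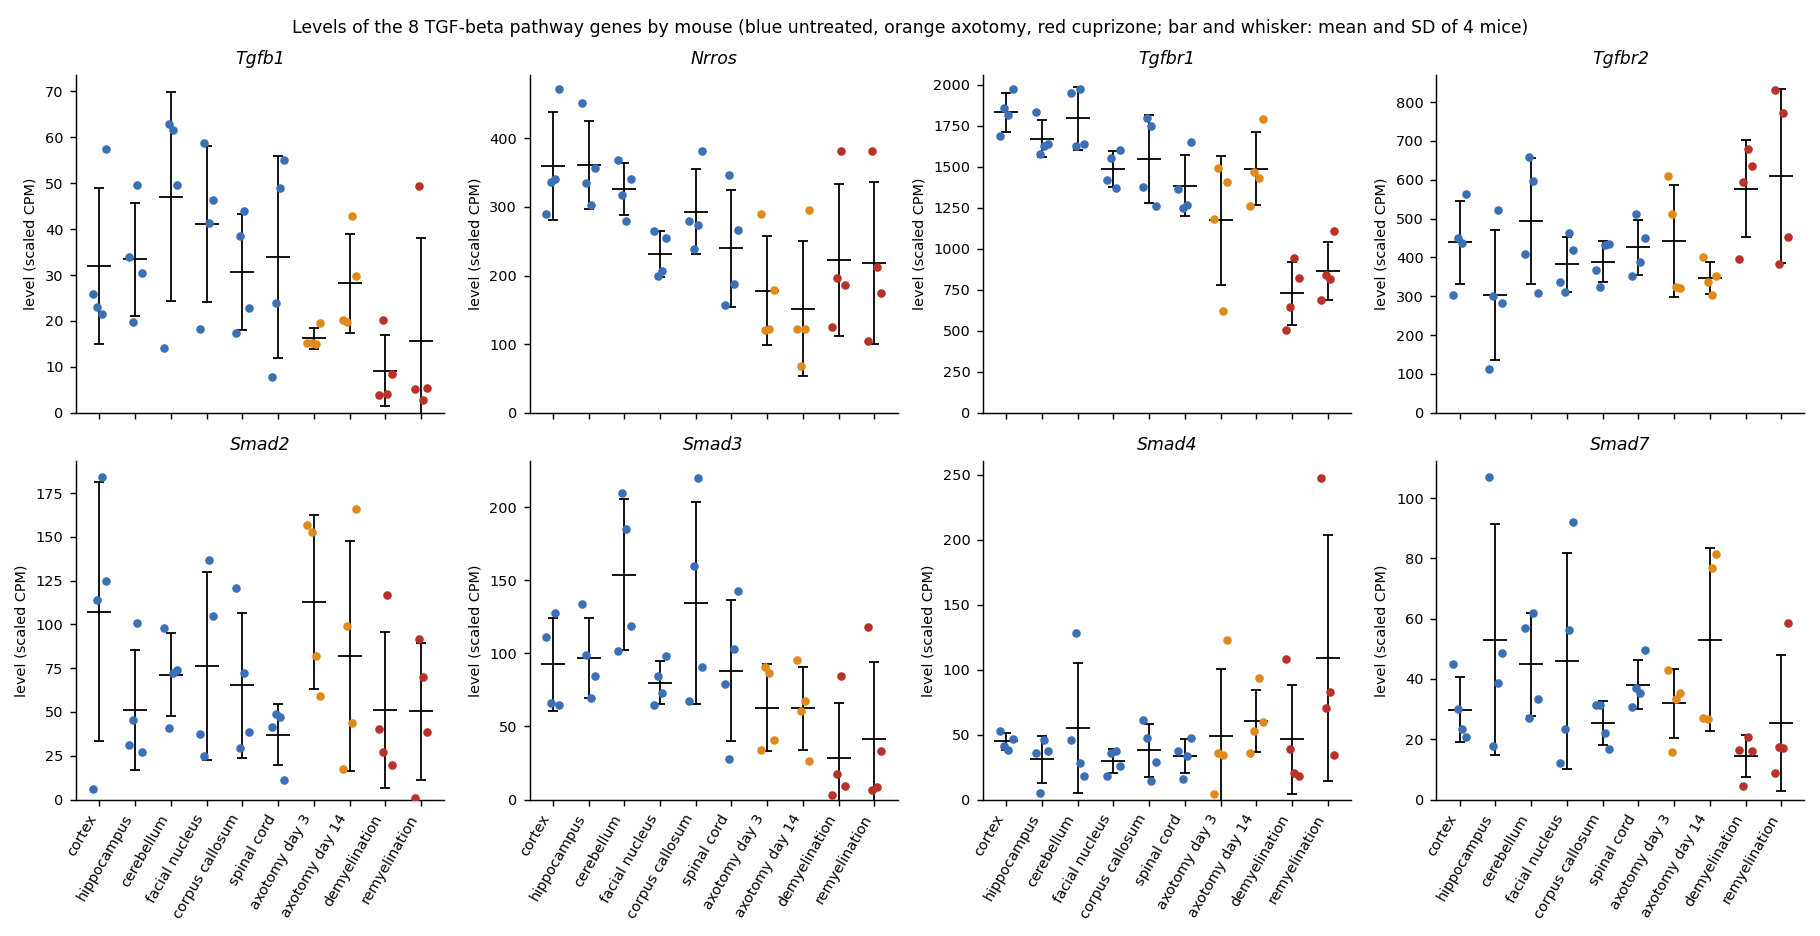
Level of each gene in scaled CPM (vertical axes, each from 0) in the 10 groups; points are mice, bars means and whiskers SDs over 4 mice. Tgfbr1 lies at 1250 to 1974 in the untreated mice and at 506 to 1107 in the cuprizone mice, while the ranges of the other 7 genes in the cuprizone mice overlap those of the untreated corpus callosum.

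The ligand gene Tgfb1 was low in all groups. Its mean was 47.1 ± 22.8 CPM (SD, n = 4) in cerebellum, 41.1 ± 17 in facial nucleus, 33.9 ± 22.0 in spinal cord, 33.4 ± 12.4 in hippocampus, 32.0 ± 17 in cortex and 30.7 ± 12.6 in corpus callosum. At day 14 after axotomy it was 28.2 ± 10.8 and at day 3 16.2 ± 2.23, and it was 15.7 ± 22.4 in remyelination and 9.17 ± 7.71 in demyelination. In this order each group overlapped the next, apart from day 14, whose mice all lay above those of day 3. The day 3 mice stood at 15.1, 15.2, 15.0 and 19.5 CPM and those of the uninjured facial nucleus at 18.2, 58.7, 41.3 and 46.4. The change at day 3 was -1.33 ± 0.67 and was not called (adjusted p = 0.656). In demyelination the mice stood at 3.86, 20.3, 4.05 and 8.50 CPM, and in the untreated corpus callosum at 17.4, 38.5, 44.0 and 22.8. In CPM only demyelination replicate 2 reached into the untreated range, and the change of -1.77 ± 1.26 was not called (adjusted p = 0.502). Per length, on the TPM-like scale without TMM scaling, all demyelination mice (1.22 to 6.70) lay below all untreated mice (9.79 to 24.2). In remyelination 3 mice were at 2.76 to 5.50 CPM and replicate 2 at 49.3, above every corpus callosum mouse (-0.96 ± 1.24, adjusted p = 0.765).

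Nrros, which anchors latent TGF-beta, was highest in hippocampus (361 ± 63.7 CPM) and cortex (359 ± 78.5) and lowest at day 14 after axotomy (152 ± 98.6), with overlap between all neighbours in the order. In cerebellum the mice stood at 279 to 369 CPM, all above the 200 to 265 of the facial nucleus on the same plate (0.48 ± 0.25, adjusted p = 0.477). At day 14, 3 mice were at 68.3, 122 and 122 CPM and replicate 4 at 295 (-0.61 ± 0.41, adjusted p = 1.000). Demyelination mice stood at 125, 196, 382 and 186 CPM against 279, 238, 273 and 382 in corpus callosum. In CPM the 2 groups overlapped through demyelination replicate 3. Neither the change in demyelination (-0.43 ± 0.42, adjusted p = 0.653) nor that in remyelination (-0.44 ± 0.42, adjusted p = 0.670) was called. Per length, without TMM scaling, all mice of both cuprizone groups lay below all untreated mice. The means per length were 89.2 in demyelination and 85.4 in remyelination, against 211 in corpus callosum.

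Tgfbr1, the gene of the type I receptor, was lower in cuprizone demyelination than in the untreated corpus callosum. The demyelination mice stood at 506, 644, 946 and 819 CPM and the untreated mice at 1379, 1800, 1749 and 1260. All 4 demyelination mice lay below all 4 untreated mice, and the change was -1.11 ± 0.23 (adjusted p = 0.0100). It was the 1 call among the 8 members in this comparison, where 2.08% of all 14057 genes tested were called lower and 5.16% in either direction. In CPM, mice that did not overlap and were lower were seen for 1 member and for 9.98% of all genes. Per length, such mice were seen for Tgfb1, Tgfbr1, Smad3, Smad7 and Nrros, while Tgfbr2, Smad2 and Smad4 overlapped. The percentage of all genes was not computed per length, a scale without TMM scaling. The number of members separated there is thus not shown to be particular to them. The median change was -0.63 over the members and -0.33 over all genes tested.

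In remyelination the Tgfbr1 mice stood at 686, 838, 815 and 1107 CPM, again all below the untreated mice, as for 8.74% of all genes. The change of -0.85 ± 0.23 missed the threshold (adjusted p = 0.0561), and no member was called, against 3.12% of all genes tested. By edgeR 2 of 8 members, Tgfbr1 and Tgfbr2, had an unadjusted p under 0.05, as did 2644 of all 14057 genes tested. DESeq2 called 1 member here, Tgfbr1 (-1.03, adjusted p = 0.0312), as did 4 further settings listed at the end. Remyelination and demyelination did not differ in any member by edgeR, with 0 of 8 at an unadjusted p under 0.05 and 0 by DESeq2 (Tgfbr1 0.26 ± 0.23, adjusted p = 0.737); 0.0427% of all genes were called.

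The Tgfbr1 call in demyelination depended on single mice. It was lost without corpus callosum replicate 2 (-1.01, adjusted p = 0.0546), without demyelination replicate 1 (-0.94, adjusted p = 0.0527) and without demyelination replicate 2 (-1.03, adjusted p = 0.0530), and was kept without any other of the 8 mice. Over all 20 alternatives run, Tgfbr1 was called in 16, with changes of -1.56 to -0.94 and adjusted p-values of 0.000282 to 0.0598.

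Other measures moved with the same groups. Apoe, the gene of a lipid carrier, took 8.68% of all counts in demyelination and 13.9% in remyelination, and at most 0.215% in any other group; without Apoe and mitochondrial reads Tgfbr1 was still called in demyelination. Of the 6 monocyte markers, Ly6c2 and Chil3 were at 0 in demyelination and Ccr2 at 0.313 to 21.7 CPM, while Fn1, which encodes fibronectin, was at 385 to 1578 CPM against 1.18 to 14.1 in corpus callosum. These markers summed to 386 to 1600 CPM in demyelination, 0.549 to 221 in remyelination and 11.1 to 173 in corpus callosum, all without TMM scaling. Cells with at least 50 CPM of Fn1 numbered 74 of 161 in demyelination, 17 of 129 in remyelination and 8 of 173 in corpus callosum. Without them the change of Tgfbr1 was -0.95 and was not called (adjusted p = 0.0598). The 6 border macrophage markers summed to 131 to 254 CPM in remyelination, 8.89 to 62.3 in demyelination and 4.81 to 17.5 in corpus callosum, with Cd163 and Lyve1 at 0 in remyelination. Leaving out cells with at least 2 macrophage or monocyte markers at 50 CPM, of which demyelination had 0, kept the call. The part of these differences in the result was not tested.

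Tgfbr2, the gene of the type II receptor, was not called in the cuprizone groups, and the direction of its means there turned with the scale. On the scale of CPM its mice stood at 397, 593, 680 and 636 CPM in demyelination and at 832, 384, 772 and 452 in remyelination, against 323, 431 and 435 in corpus callosum replicates 2, 3 and 4, with replicate 1 between the first pair. In demyelination 3 of 4 mice, and in remyelination 3 of 4, lay above every untreated mouse. The changes of 0.54 ± 0.29 (adjusted p = 0.327) and 0.65 ± 0.29 (adjusted p = 0.229) were not called. With equal weight for each cell they were 0.06 and -0.04. Per length, on the TPM-like scale, the means were lower, at 203 ± 49.5 in demyelination and 202 ± 62.3 in remyelination against 243 ± 36.5 in corpus callosum. In CPM over all 10 groups the highest mean was in remyelination, at 610 ± 225, and the lowest in hippocampus, at 304 ± 168, where single mice ranged from 112 to 521; all neighbours in the order overlapped.

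The receptor genes are set side by side as the ratio of Tgfbr1 to Tgfbr2 per length within each mouse, a measure chosen after the values were seen and given with no test. In corpus callosum the ratio was 2.75, 4.08, 2.97 and 2.12. It was 0.934, 0.796, 1.02 and 0.944 in demyelination and 0.603, 1.60, 0.773 and 1.79 in remyelination. All 8 cuprizone mice thus lay below the 4 untreated mice. Day 3 after axotomy had 1.42, 2.13, 1.40 and 3.22, and the means of the other untreated regions and of day 14 ran from 2.42 to 5.61. The ratio is free of scaling between samples but rests on the deposited exon lengths.

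**Figure D2:**
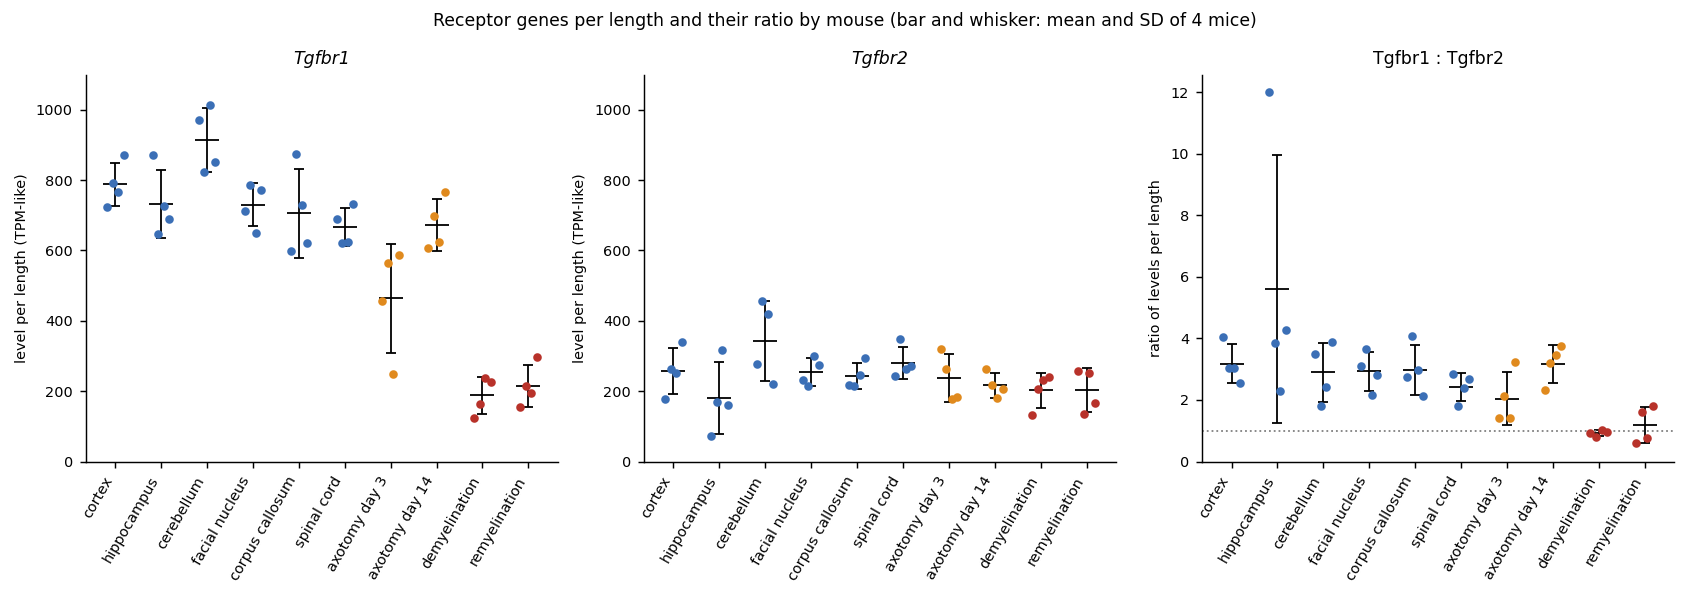
Left and centre, level per length (TPM-like) of Tgfbr1 and Tgfbr2 in the 10 groups on the same scale; right, the ratio of the 2 in each mouse, with a dotted line at 1. Points are mice, bars means and whiskers SDs over 4 mice; the demyelination mice lie at a ratio of 0.796 to 1.02 and the corpus callosum mice at 2.12 to 4.08.

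Among the untreated regions the mean of Tgfbr1 was 1833 ± 119 CPM in cortex, 1796 ± 192 in cerebellum, 1670 ± 112 in hippocampus, 1547 ± 268 in corpus callosum, 1486 ± 108 in facial nucleus and 1383 ± 186 in spinal cord. No member differed among the 6 regions by edgeR (lowest adjusted p = 0.490, 0 members at an unadjusted p under 0.05, DESeq2 0), where 0.100% of 22907 genes were called. Between regions on the same plate, cortex with hippocampus (0% of all genes called), cerebellum with facial nucleus (0.00437%) and spinal cord with corpus callosum (0%), edgeR and DESeq2 called none of the 8 either. Smad3 in cerebellum against facial nucleus was the 1 member at an unadjusted p under 0.05 by edgeR in these 3 comparisons. In that comparison 2578 of all 22907 genes were under it. Tgfbr1, Smad3 and Nrros were higher in all 4 cerebellum samples than in all 4 facial nucleus samples, 3 of 8 members. Of all genes 0.914% were higher without overlap and 2.47% had no overlap in either direction. By the design text the regions came from the same mice, but these comparisons were not paired, because the labels do not say which samples share a mouse.

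After axotomy Tgfbr1 stood at 1180, 1492, 618 and 1406 CPM at day 3 and at 1261, 1467, 1429 and 1792 at day 14, against 1419, 1551, 1371 and 1602 in the uninjured facial nucleus. The day 3 mice overlapped the uninjured ones apart from replicates 1 and 3 below them, and day 14 spanned the uninjured range. The changes were -0.33 ± 0.23 at day 3 (adjusted p = 0.878) and 0.00 ± 0.23 at day 14 (adjusted p = 1.000). No member was called by edgeR or by DESeq2 at day 3 (0.145% of all 19319 genes called by edgeR), at day 14 (0%) or between day 14 and day 3 (0.0259%), and none had an unadjusted p under 0.05. In CPM, Tgfb1 was the 1 member whose mice did not overlap, between day 14 and day 3 (1.89% of all genes higher, 3.67% in either direction). Per length, the day 3 mice of Tgfb1 (7.42 to 10.6) also lay below all uninjured mice (11.8 to 38.5). The day 3 mice of Tgfbr1 (249 to 588 per length) lay below all uninjured mice (650 to 785) and all day 14 mice (606 to 766). In TMM-scaled CPM both genes overlapped the uninjured mice at day 3. How many of all genes separate these groups per length was not computed. Set against each other, the effects of demyelination and of day 3 on Tgfbr1 differed by -0.68 ± 0.34, which was not called (adjusted p = 0.234), nor was the same difference for remyelination and day 14 (-0.81 ± 0.34, adjusted p = 0.135; called by DESeq2 at -1.11, adjusted p = 0.0258). Of all genes 0.281% and 0.846% were called in these tests, so the Tgfbr1 response is not shown by edgeR to differ between the injuries.

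**Figure D3:**
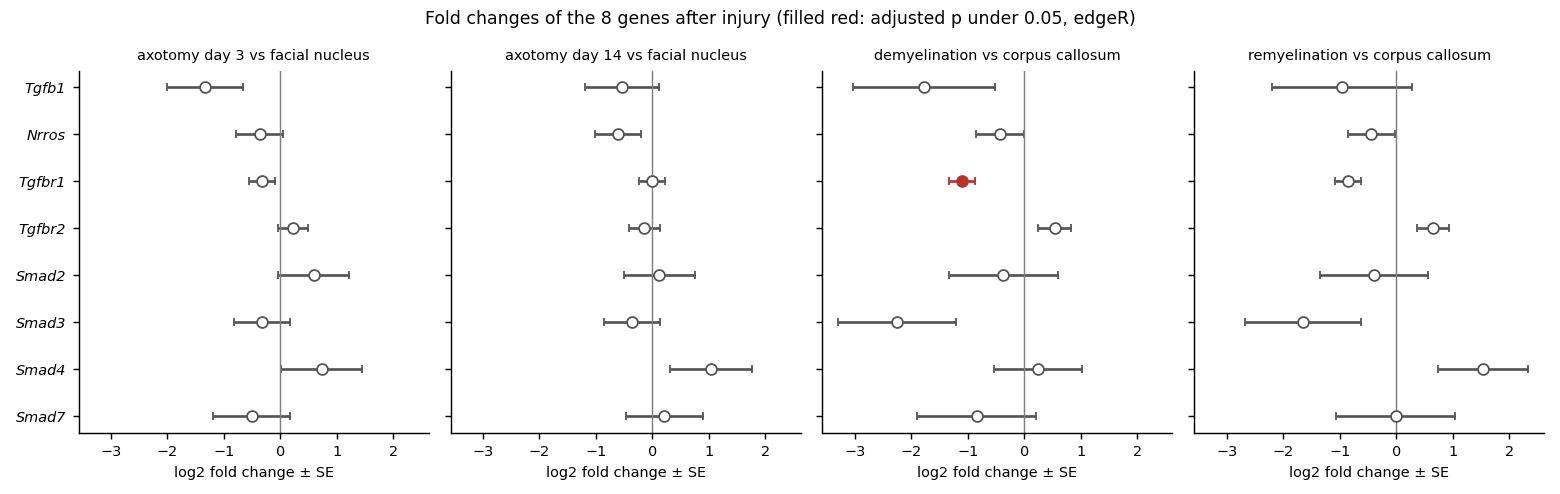
Log2 fold change (horizontal axis, whiskers SE) of the 8 genes against the untreated region, at days 3 and 14 after axotomy and in cuprizone demyelination and remyelination, 4 mice per group. Filled red marks an adjusted p under 0.05; Tgfbr1 in demyelination, at -1.11, is the 1 such point.

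The Smad genes were read at low levels that varied between mice. Smad2 (ENSMUSG00000024563, 76241580 to 76305731), Smad4 (ENSMUSG00000024515, 73639009 to 73703780) and Smad7 (ENSMUSG00000025880, 75367529 to 75395935) all lie on chromosome 18. Smad3, the transducer that binds DNA directly, stood at 3.31, 17.4, 84.6 and 9.41 CPM in demyelination and at 118, 6.73, 8.57 and 33.3 in remyelination, against 67.7, 160, 220 and 90.9 in corpus callosum. In CPM 3 of 4 mice in each cuprizone group lay below every untreated mouse and 1 mouse lay within their range. Per length, without TMM scaling, all mice of both cuprizone groups lay below every untreated mouse. The means per length were 8.57 in demyelination and 11.6 in remyelination, against 71.9 in corpus callosum. The changes of -2.25 ± 1.04 (adjusted p = 0.232) and -1.65 ± 1.02 (adjusted p = 0.445) were not called. Among the other groups the Smad3 mean ran from 154 ± 51.8 in cerebellum to 62.5 ± 28.4 at day 14.

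Smad2, the partner of Smad3 in the pathway, ranged over single mice from 0.986 to 184 CPM. Its highest mean was 113 ± 49.5 at day 3 after axotomy and its lowest 37.1 ± 17.5 in spinal cord, with overlap between all neighbours. Smad4, the shared partner of Smad2 and Smad3, was at 248, 70.7, 83.1 and 34.6 CPM in remyelination against 61.0, 47.6, 14.6 and 29.1 in corpus callosum (1.54 ± 0.80, adjusted p = 0.331). The groups overlapped through remyelination replicate 4, and the highest value was a single mouse. Smad7, which blocks the type I receptor, had its highest means in hippocampus (53.2 ± 38.4) and at day 14 (53.0 ± 30.3) and its lowest in demyelination, at 16.3, 4.47, 20.9 and 16.2 CPM. Corpus callosum mice stood at 31.4, 31.5, 22.1 and 16.6, and the change of -0.84 ± 1.05 was not called (adjusted p = 0.748). The 2 groups overlapped in CPM, but per length, without TMM scaling, the demyelination mice (1.65 to 7.59) lay below all untreated mice (11.8 to 22.1).

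Within cells, the members were read in very different shares. Each cell was thinned to 20000 reads so that depth did not set the share, and shares carry no test. In the untreated regions Tgfbr1 was read in 95.1% to 100% of cells on average over mice, Tgfbr2 in 52.3% to 66.8% and Nrros in 42.1% to 60.1%. Smad3 was read in 20.7% to 30.5% of cells, Tgfb1 in 17.9% to 24.9%, Smad7 in 16.6% to 20.6%, Smad2 in 12.8% to 18.6% and Smad4 in 9.95% to 14.9%. A gene not read in a cell at this depth is not shown to be absent from it.

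The share of Tgfbr1-positive cells was lower after both injuries. It was 72.1%, 86.7%, 81.4% and 81.1% at day 3, with 1 read or more, and 92.5%, 91.5%, 88.6% and 90.0% at day 14, against 97.8%, 100%, 97.3% and 100% in the uninjured facial nucleus. In these thinned cells all mice of each injured group lay below all uninjured mice. Without thinning the means were 91.0% ± 3.92 at day 3, 96.5% ± 3.02 at day 14 and 98.8% ± 1.44 in the uninjured nucleus; the day 3 mice again lay below all uninjured mice, and the day 14 mice overlapped them. Demyelination had 55.6%, 56.5%, 63.4% and 50%, and remyelination 51.7%, 54.5%, 58.3% and 58.1%, against 93.3%, 97.6%, 97.8% and 95% in corpus callosum. Without thinning the means were 72.6% in demyelination, 69.0% in remyelination and 100% in corpus callosum. Among cells with a read, the mean number of thinned Tgfbr1 reads was 20.6 in demyelination (13.2 to 26.4 over mice), 22.0 in remyelination (14.6 to 28.2) and 34.3 in corpus callosum (29.9 to 37.1), so both the share and the reads per positive cell were lower and neither group overlapped the untreated mice. At day 3 the positive cells averaged 33.0 reads (18.8 to 38.7), against 35.1 (33.5 to 37.2) in the uninjured nucleus.

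Genes whose share of cells did not overlap between mice were common in the cuprizone comparisons. In demyelination the shares of Tgfb1, Tgfbr1 and Smad3 were lower in all 4 mice than in all untreated mice, 3 of 8 members, where 20.3% of all genes were lower in this way and 27.2% differed in either direction. In remyelination the shares of Tgfbr1, Smad2, Smad3 and Nrros were lower, 4 of 8, where 25.3% of genes were lower and 27.2% differed. At day 3 the shares of Tgfbr1 and Tgfb1 were lower, 2 of 8, where 2.34% of genes were lower, and at day 14 that of Tgfbr1, 1 of 8, where 2.09% were lower. Tgfbr1 was also read in more thinned cells at day 14 than at day 3 in all mice, where 4.82% of genes differed in either direction. Without thinning these 2 groups overlapped, at 93.2% to 100% on day 14 and 86% to 95.6% on day 3. In the 3 pairs of regions no member's shares separated the mice (3.56%, 4.31% and 3.22% of all genes). Tgfbr2 was read in 51.9% ± 13.2 of demyelination cells and 57.8% ± 2.23 of corpus callosum cells, with overlap.

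**Figure D4:**
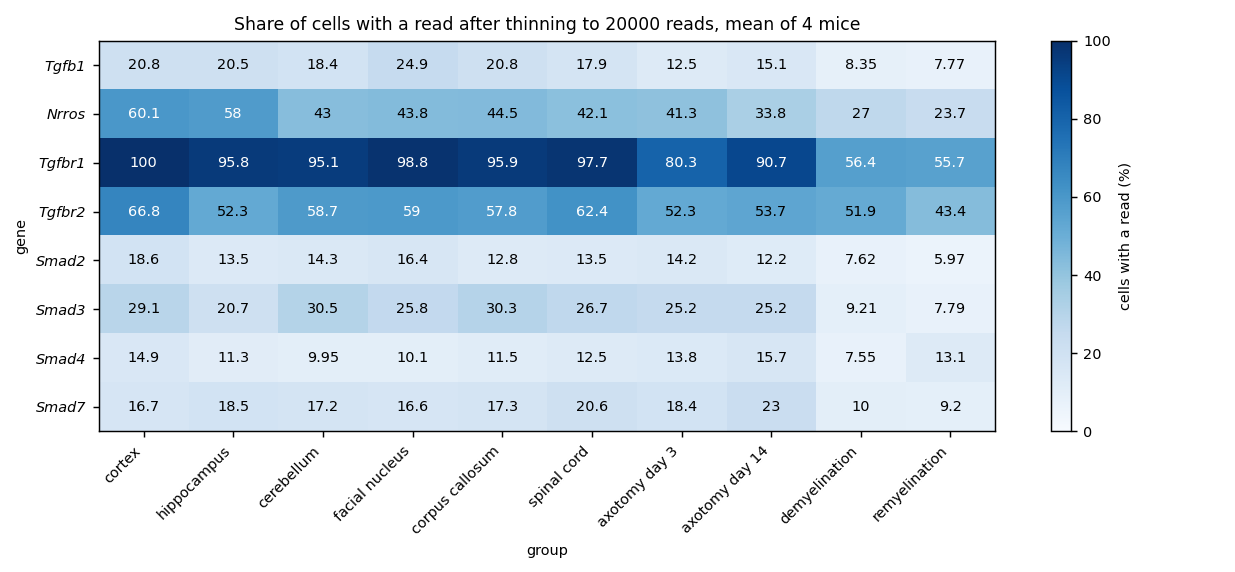
Mean share of cells with at least 1 read, in percent, over 4 mice after each cell was thinned to 20000 reads, for the 8 genes (rows) in the 10 groups (columns). Tgfbr1 stands at 95.1 to 100 in the untreated regions and at 56.4 and 55.7 in demyelination and remyelination.

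The 20 negative wells, with a median of 524.5 counts, give the background without thinning. Tgfbr1 was read in 6 of them (30.0%, exact 95% binomial interval 11.9% to 54.3%), with 15 reads in all and at most 9 in 1 well, while kept cells had a median of 276 Tgfbr1 reads. Tgfb1 was read in 3 negative wells, Tgfbr2 in 2, Nrros in 2 and Smad7 in 1. Smad2, Smad3 and Smad4 were read in 0 of 20 wells, which allows a share of up to 15.0% by the limit of 3 counts, and the exact 95% upper bound is 16.8%. These intervals cover counting error only.

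No cell carried reads of all members. Of the 1644 kept cells, 87 had no member read after thinning, 446 had 3, which was the most common number, 29 had 6, and none had 7 or 8. The mean number of members read per cell was 2.58 to 3.27 in the untreated and axotomy groups, 1.78 ± 0.365 in demyelination and 1.67 ± 0.333 in remyelination. Detected genes per cell were also fewer before thinning, with medians of 2137 in demyelination and 1517 in remyelination against 2926 in corpus callosum. No such number was computed for other sets of genes, so the fall is not shown to be particular to the members. Cells with no member read numbered 28 of 161 in demyelination, 30 of 129 in remyelination and 14 of 168 at day 3, against 0 of 173 in corpus callosum and 1 of 161 in the facial nucleus. Over pairs of members, the number of cells with both was set against the number expected from the 2 shares within each mouse, with no test. The ratio ran from 0.777 to 1.26, with a median of 1.07, and was above 1 for 26 of 28 pairs. In the untreated groups it ran from 0.493 (Smad2 and Smad4, read together in 9 cells) to 1.21, with a median of 1.02. In the cuprizone groups the median was 1.39. The expected number treats all cells of a mouse alike, although cells differed in the number of genes detected. At least 1000 genes were detected in 100 of 129 kept cells in remyelination and in 173 of 173 in corpus callosum. Pairs of other genes were not looked at, so these ratios are not shown to be particular to the members. In the cuprizone groups Tgfbr1 and Tgfbr2 were both read in 99 cells, where the shares gave 80.8, and the number was above the expected one in 8 of 8 mice. Tgfbr1 and Smad7 were both read in 24 cells, against 15.9, also above in 8 of 8 mice. The extremes rest on few cells, from 0 for Tgfb1 and Smad2, where 1.51 were expected, to a ratio of 2.96 for Smad3 and Smad7, with 8 cells against 2.70.

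Genes with a known place in the pathway were read from 6 fixed lists. In demyelination 9 of 14 microglial genes known to need TGF-beta fell and none rose, where 2.08% of all genes were called lower; their median change was -1.40, against -0.33 over all genes. Of the 14 genes 11 are also on the list of microglia markers, so the 2 lists are not separate evidence. Tmem119, a surface marker of resident microglia, fell from 3746 ± 796 to 487 ± 199 CPM (-2.98 ± 0.34, adjusted p = 3.35e-05). The purinergic receptor genes P2ry12 and P2ry13 fell from 6800 ± 647 to 1988 ± 851 CPM (-1.81 ± 0.31, adjusted p = 0.00220) and from 2507 ± 565 to 547 ± 175 (-2.23 ± 0.37, adjusted p = 0.00183). Siglech, the gene of a sialic acid-binding lectin, changed by -1.91 ± 0.30 (adjusted p = 0.000960), Slc2a5, a fructose transporter gene, by -3.48 ± 0.61 (adjusted p = 0.00256), and Cx3cr1, the fractalkine receptor gene, by -1.06 ± 0.16 (adjusted p = 0.000572). Beside these, Sall1, Gpr34 and Adgrg1 were called lower, named here because they complete the count. The call of Sall1 was lost without 6 of the 8 mice, each left out in turn (adjusted p = 0.0604 to 0.0703), all but corpus callosum replicate 3 and demyelination replicate 2. Genes not called, named after their values were seen, included Olfml3, Csf1r, Mertk and Fcrls, which was 3481 ± 1269 against 740 ± 539 (2.18 ± 0.68, adjusted p = 0.0696).

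In remyelination 7 of the 14 fell and none rose, with a median of -1.45 against -0.31 over all genes, where 0.605% of all genes were called lower. Tmem119 was 554 ± 160 CPM (-2.76 ± 0.33, adjusted p = 8.73e-05) and P2ry12 1765 ± 642 (-1.95 ± 0.31, adjusted p = 0.00139). Siglech, Cx3cr1, Slc2a5, P2ry13 and Mertk, the last named as the remaining gene of the count, were also called. The call of Mertk was lost without 7 of the 8 mice, all but remyelination replicate 1 (adjusted p = 0.0798 to 0.129), with the replicate block (0.0921) and with no filter on low counts (0.149). That of Slc2a5 was lost without corpus callosum replicate 2 or 4 or remyelination replicate 2, 3 or 4 (0.0521 to 0.0636), and that of P2ry13 without corpus callosum replicate 1 or 4 or remyelination replicate 3 (0.0683 to 0.0796). Tmem119, P2ry12, Siglech and Cx3cr1 were called without any 1 mouse. Without the Fn1-positive cells the counts were 9 in demyelination and 3 in remyelination. Without corpus callosum replicate 4, or without remyelination replicate 3, the remyelination count was 4. Between the demyelination and day 3 effects, the changes of Tmem119 (-2.33 ± 0.38, adjusted p = 0.000786), Siglech (-1.81 ± 0.37, adjusted p = 0.0146) and P2ry12 (-1.75 ± 0.37, adjusted p = 0.0233) differed, all lower with cuprizone, and the same 3 genes differed between the remyelination and day 14 effects. In the axotomy comparisons none of the 14 was called by edgeR, with a median change of -0.47 at day 3 and -0.38 at day 14, against 0.04 and 0.11 over all genes.

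**Figure D5:**
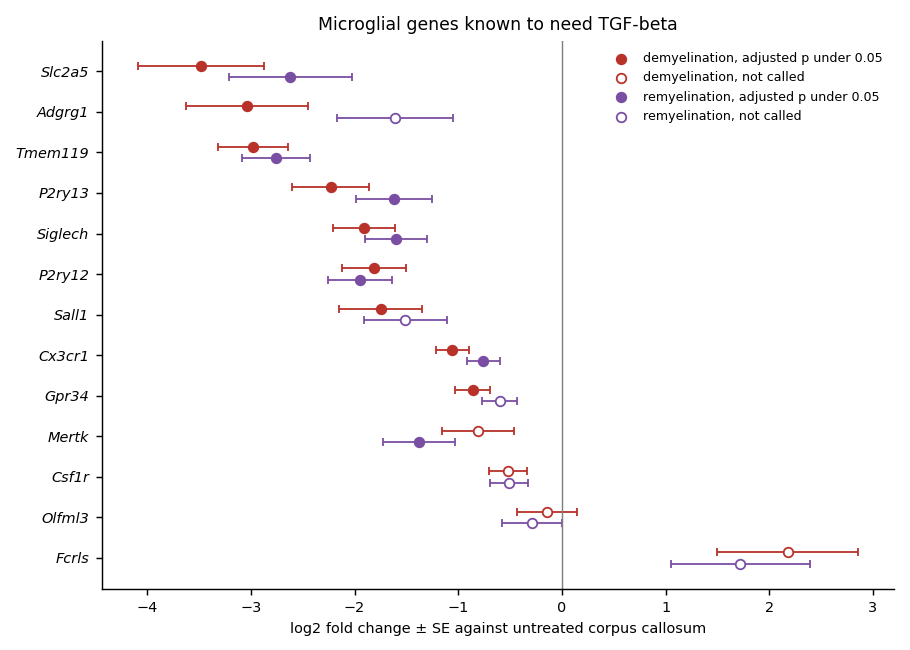
Log2 fold change against untreated corpus callosum (horizontal axis, whiskers SE) of microglial genes known to need TGF-beta that are reported here, in demyelination (red) and remyelination (violet), 4 mice per group; filled points have an adjusted p under 0.05. Tmem119 lies at -2.98 and -2.76.

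The other 5 lists gave 1 call each for 3 lists and none for 2, in both cuprizone stages, all of them higher. Of 10 genes of coreceptors and other receptors, 8 had a negative change in demyelination and 7 in remyelination. Their median changes were -1.20 and -0.69, against -0.33 and -0.31 over all genes. Among them Bambi rose. It encodes a pseudoreceptor without kinase activity that blocks TGF-beta signalling, and stood at 73.3 ± 2.34 CPM in demyelination and 112 ± 54.4 in remyelination, against 0.663 ± 1.33 in corpus callosum (6.75 ± 1.47, adjusted p = 0.0134; 7.39 ± 1.51, adjusted p = 0.00972). Of 27 Smad partners and brakes, 24 were tested and Dab2 rose, which encodes an endocytic adaptor known to link the receptors to Smad proteins. It was 255 ± 86.9 CPM in demyelination and 83.5 ± 57.7 in remyelination, where 1 mouse was at 0, against 1.24 ± 0.490 (7.64 ± 1.30, adjusted p = 0.00203; 6.04 ± 1.21, adjusted p = 0.00892). Of 14 general target genes of TGF-beta, 8 were tested and Bhlhe40, the gene of a transcriptional repressor, rose, at 259 ± 47.3 and 147 ± 32.7 CPM against 2.63 ± 2.90 (6.60 ± 1.06, adjusted p = 0.00122; 5.82 ± 1.02, adjusted p = 0.00305). Of all genes, 3.08% were called higher in demyelination and 2.51% in remyelination. The fitted changes of these 3 genes rest on untreated levels near 0. Bambi and Bhlhe40, each with corpus callosum mice at 0, passed the filter on low counts through the cuprizone groups. Dab2 was at 0.694 to 1.88 CPM in corpus callosum. Genes this low in the untreated mice can hardly be called lower, so the shared direction of these calls is not a result about the lists. For Bambi, corpus callosum replicate 2, at 2.65 CPM, held all the reads of its group, and without it the fitted changes were 12.62 and 13.27, which depend on the prior count and give no size. With all 10 groups fitted together Bambi and Bhlhe40 were not called in demyelination (adjusted p = 0.0918 and 0.0683) or remyelination (0.101 and 0.105), and Dab2 in remyelination was not called with equal weight for each cell (0.0615) or in a fit of only the 2 groups (0.0544).

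None of the 8 genes of ligands and latency proteins, nor of the 7 tested of 10 activator genes, was called in either stage. The ligand and latency genes had median changes of -5.75 in demyelination, with 6 of 8 negative, and -1.39 in remyelination, with 4 of 8 negative. Most of this list was read near 0: Ltbp3, next in level after Furin, was 1.36 ± 1.88 CPM in corpus callosum. Furin, the gene of the protease that cuts the TGF-beta precursor, was 28.1 ± 11.2 CPM in demyelination and 34.8 ± 9.70 in corpus callosum (adjusted p = 0.883). Itgb5, the gene of an integrin chain that can take part in releasing latent TGF-beta, was 1280 ± 310 CPM in demyelination, 1135 ± 266 in remyelination and 777 ± 117 in corpus callosum (0.69 ± 0.23, adjusted p = 0.0853; 0.56 ± 0.23, adjusted p = 0.190). In the 3 pairs of regions, the 3 axotomy comparisons and remyelination against demyelination, edgeR called no gene of the 6 lists. Among the 6 regions P2ry12 alone was called.

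The genes whose pattern over the 40 sums was most like that of each member are given as a description of 7255 genes with a mean of at least 20 CPM; the sums share plates, depth and treatment. For Tgfbr1 they were Gm15503 (Pearson's r = 0.86), P2ry13 (0.85) and Arglu1 (0.85). For Smad3 they were Kcnk12, Slco2b1 and Ankrd11, and for Tgfb1 3110080O07Rik, Gimap6 and Frmd4a, all at 0.75. The closest genes to the other members were Pitrm1 for Tgfbr2 (0.64), Ppip5k2 for Smad2 (0.71), Med14 for Smad4 (0.64), Zfc3h1 for Smad7 (0.68) and Tom1l2 for Nrros (0.66). Among the members themselves Tgfbr1 correlated with Smad3 at 0.66 and with Tgfb1 at 0.63, and with Tgfbr2 at -0.34, over the same 40 sums.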

How the data were processed

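The values deposited by the authors are raw read counts per gene and well. The submitters' processing notes name the aligner STAR 2.5.2b, the counter featureCounts 1.5.1 and the build GRCm38. The release of the annotation and any strand option are not given in the sources used. The library method itself marks no strand. Of 48709 gene IDs, 48349 were found in GENCODE vM21, used for symbols. The 92 spike-in entries stayed out of library sizes and tests.

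Wells with at least 20000 gene counts, at least 500 genes, under 25% mitochondrial counts and under 50% spike-in counts were kept (1644 of 1900; 0 of 20 negative wells). Doublets were not called, because wells received single cells. Counts were summed per mouse and group (4 mice each) and tested with edgeR 4.0.16 in R 4.3.3 (TMM scaling, filterByExpr, robust quasi-likelihood F test, false discovery rate 0.05) in separate fits of the 6 regions, the axotomy groups with facial nucleus, and the cuprizone groups with corpus callosum; differences between injuries came from a fit of both. The steps were tested on simulated data in which only genes with high counts in corpus callosum were changed. Tgfb1, Smad2, Smad4 and Smad7 lie below that limit, so recovery of changes at their levels was not tested. P-values rest on the spread between mice, with 4 per group. Alternatives included DESeq2 1.42.0 and limma 3.58.1 (equal weight for each cell, log2 of CPM plus 1), other scaling and filters, and leaving out mice. Thinning used a fixed seed.

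The lists hold a further gene that is in the counts and whose own result is not reported here. The members and gene lists were chosen with earlier results of these data known. From each list, the genes named are those called, at most 6 by smallest p, or otherwise up to 2 of the highest level, and genes named beyond this, to complete a count or after their values were seen, are marked so in the text; of genes most like a member, the 3 with the highest correlation were computed.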

Additional observations from a re-analysis of the deposited data

Results flagged for a closer look

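Of 80 sets of 4 mice, 1 for each member and group, 3 had a mouse far from the others, where chance gives about 4 (1 in 20). All 3 concern Tgfb1. Cortex replicate 4 stood at 57.4 CPM, with the next mouse at 25.9, day 3 after axotomy replicate 4 at 19.5, with the next at 15.2, and remyelination replicate 2 at 49.3, with the next at 5.50. Reads of 3 members appeared in the negative wells above the limit that a count of 0 allows (3 reads): 15 reads of Tgfbr1, 11 of Tgfbr2 and 7 of Nrros over 20 wells.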

How the results depend on the processing

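In demyelination the number of members called was 1. It was 2 with equal weight for each cell (Tgfbr1 and Smad3), 0 to 1 without any 1 of the 8 mice, and 0 without cells with Fn1, a setting chosen after seeing the data, as was leaving out Apoe and mitochondrial reads. In remyelination it was 0, and 1 with DESeq2, upper-quartile scaling, only the 2 groups or all 10 groups (Tgfbr1 each time) and 2 with equal weight for each cell (Tgfbr1 and Smad3). For the difference of late effects it was 0, and 1 with DESeq2 or equal weight for each cell. Of TGF-beta-dependent microglial genes, 9 fell in demyelination (8 to 9 without 1 mouse), and 7 in remyelination, with 13 at equal weight for each cell, 3 without cells with Fn1 and 4 to 7 without 1 mouse. The causes were not tested. Of 1776 alternative values of member fold changes, 1763 kept their side of the threshold, 9 gained a call and 4 lost one, and none of the called values changed direction; 142 uncalled values changed sign. Upper-quartile scaling moved the median of all genes from -0.33 to -0.53 in demyelination and from -0.31 to -0.47 in remyelination. DESeq2, which tested more genes, gave medians of -1.98 and -1.55. With the replicate number as a block, 1 member was called in demyelination and 0 in every other comparison, so no count of members changed. The labels do not say whether a number marks a mouse. In the untreated regions same-numbered samples had correlations of -0.022 to 0.123, on average above those of other numbers in 15 of 15 pairs of groups, and in 7 pairs 4 of 4 samples correlated best with their own number, a hint from the data and not from the design. In the injury fits the correlations were -0.047 to 0.052. The block moved the count over all genes from 725 to 447 in demyelination and from 438 to 320 in remyelination. That count was 3367 and 2695 with DESeq2, 2193 and 2201 with equal weight for each cell, 1407 and 831 with only the 2 groups, 1184 and 747 with all 10 groups, 316 and 216 without cells with Fn1, and 310 to 384 and 256 to 385 without 1 mouse. Of 80 mean shares, 59 moved by more than 1 SD without thinning, 23 when thinned to 50000 reads and 43 with at least 3 reads. Reads without molecular identifiers limit low genes such as Tgfb1 and the Smad genes.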
